A study of Rattus norvegicus with 6 samples.

Results

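The name myelin structural genes is used here for 9 genes of the oligodendrocyte and its myelin sheath. They are described in nuclei from the nucleus accumbens of the rat, a forebrain reward region. The list includes Aspa, an enzyme, and Hapln2, a link protein of the matrix at nodes of Ranvier, which are not structural proteins of the sheath. Members were the rows whose gene symbol was Mbp, Mog, Mobp, Mag, Opalin, Ermn, Cnp, Aspa or Hapln2, and each symbol matched 1 gene, so the 9 members were 9 of 25629 genes. All animals were Sprague-Dawley rats aged 90 to 120 days, and all had the same heroin history. They self-administered heroin for 7 days with 1 response per infusion (FR1) and for 4 days with 3 responses (FR3), had a progressive ratio test on day 12, and went back to FR3 on days 13 and 14. The groups differ in the injection given after the last session, which was either saline or naloxone (a drug that blocks opioid receptors), 1 h before the brain was taken. Tissue punches of 12 rats, 6 male and 6 female, were pooled into 6 single-nucleus libraries, 3 of saline rats (replicates 1, 2 and 3) and 3 of naloxone rats (replicates 4, 5 and 6), each with both sexes. The comparison asks how these genes differ 1 h after naloxone in rats that had all taken heroin, and animals without heroin were not analysed here. The p-values measure the spread between pooled libraries, since animals cannot be told apart within a pool.

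Oligodendrocytes arise from dividing oligodendrocyte precursors through a short-lived committed stage, and then wrap axons in compacted membrane. Mbp (myelin basic protein) and Mobp lie on the cytoplasmic face of the membrane, and Mbp holds its layers together. Mbp mRNA is known to be carried into the cell's processes and translated there. Mag (myelin-associated glycoprotein) faces the axon, Mog (myelin oligodendrocyte glycoprotein) sits on the outermost layer, and Opalin is a transmembrane sialoglycoprotein of oligodendrocytes. Ermn (ermin) and Cnp (a cyclic nucleotide phosphodiesterase) are tied to the cytoskeleton of the cell. Aspa (aspartoacylase) splits N-acetylaspartate made by neurons into aspartate and acetate, an acetate source for lipid synthesis. Hapln2 is a link protein that holds the hyaluronan matrix at nodes of Ranvier. The transcription factor MYRF is needed for the myelin programme and acts together with SOX10.

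Promoter windows of 5 members are shown because the values of these members lay on opposite sides of the saline libraries in oligodendrocyte-like nuclei, with Aspa, Hapln2 and Mobp higher and Opalin and Cnp lower in every naloxone library. Each window runs from 250 bases before to 50 bases after the RefSeq transcription start on build GRCr8, in the direction of the gene. Capitals mark matches, on either strand, to CTGGCAC (the MYRF core), ACAAAG (a SOX core) and AGAACA (a half-site of the glucocorticoid receptor). Neighbouring matches to different motifs can share bases.
Aspa: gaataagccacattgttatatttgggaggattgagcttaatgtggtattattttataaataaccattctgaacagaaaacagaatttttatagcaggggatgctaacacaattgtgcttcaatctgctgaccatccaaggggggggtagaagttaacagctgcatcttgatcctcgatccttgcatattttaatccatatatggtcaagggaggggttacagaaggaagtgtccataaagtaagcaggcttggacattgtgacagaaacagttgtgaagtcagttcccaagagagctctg
Hapln2: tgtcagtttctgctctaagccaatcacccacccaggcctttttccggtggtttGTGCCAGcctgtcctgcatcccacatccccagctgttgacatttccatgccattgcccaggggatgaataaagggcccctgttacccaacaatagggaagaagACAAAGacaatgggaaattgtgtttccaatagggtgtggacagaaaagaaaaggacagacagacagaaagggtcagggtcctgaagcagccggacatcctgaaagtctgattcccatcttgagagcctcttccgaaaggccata
Mobp: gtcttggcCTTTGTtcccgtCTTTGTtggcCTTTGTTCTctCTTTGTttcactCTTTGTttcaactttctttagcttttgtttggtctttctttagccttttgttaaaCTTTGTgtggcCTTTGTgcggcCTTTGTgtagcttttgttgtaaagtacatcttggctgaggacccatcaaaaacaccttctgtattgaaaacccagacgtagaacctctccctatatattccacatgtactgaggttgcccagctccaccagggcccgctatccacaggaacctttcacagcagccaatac
Opalin: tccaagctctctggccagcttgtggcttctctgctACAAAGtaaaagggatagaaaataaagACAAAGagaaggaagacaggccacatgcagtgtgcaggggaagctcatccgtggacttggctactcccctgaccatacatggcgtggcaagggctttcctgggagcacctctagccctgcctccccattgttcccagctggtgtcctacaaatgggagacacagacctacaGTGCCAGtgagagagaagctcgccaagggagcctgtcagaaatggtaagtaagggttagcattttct
Cnp: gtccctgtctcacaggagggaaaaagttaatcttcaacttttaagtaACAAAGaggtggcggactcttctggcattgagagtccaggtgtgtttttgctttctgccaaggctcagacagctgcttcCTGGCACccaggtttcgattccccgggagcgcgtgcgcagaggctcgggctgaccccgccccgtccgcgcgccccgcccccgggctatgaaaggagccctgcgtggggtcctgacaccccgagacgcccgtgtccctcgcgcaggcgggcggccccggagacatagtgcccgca
The windows lie at chr10:58438988-58439287 on the minus strand for Aspa, chr2:175794389-175794688 on the minus strand for Hapln2, chr8:128746982-128747281 on the plus strand for Mobp, chr1:249858141-249858440 on the minus strand for Opalin and chr10:86011254-86011553 on the plus strand for Cnp. RefSeq gave windows for 7 of the 9 members, 8 windows in all, and Mog and Ermn had none. CTGGCAC was in the windows of Mag, Opalin, Cnp and Hapln2, against 4.75% of 33469 promoter windows of 300 bases. ACAAAG was in the same 4 windows and in those of Mobp, which held 8 matches, and of 1 of the 2 Mbp starts, against 18.8% of all windows. AGAACA was in 2 of the 8 windows, those of Mobp and of 1 Mbp start, against 20.7% of all windows, and the Aspa window held none of the 3 motifs. These matches describe letters in a short window and not binding.

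Each value counts RNA molecules by their molecular identifiers (UMIs). The libraries held between 55739350 and 76272798 UMIs, and 58960 of 64260 barcodes were used, where the study states 44592 nuclei. Nuclei were clustered without the 9 members and the clusters were named by other markers. This gave 11662 oligodendrocyte-like, 365 committed precursor-like, 2227 oligodendrocyte precursor-like, 29980 neuron-like, 4597 astrocyte-like and 1539 microglia-like nuclei, and 7368 nuclei in unnamed and 350 in mixed clusters were left out of the classes. All 14 oligodendrocyte markers were detected in the oligodendrocyte-like sums of every library, as were 8 of 8 microglia markers held by the files in the microglia-like sums. Naloxone replicate 5 stood apart, with a median of 0.563% mitochondrial UMIs per nucleus against 0.153% to 0.343% in the other libraries. Pairs of libraries shared between 19 and 45 barcodes, at most 0.408% of the smaller library. Levels below are a gene's UMIs per 1000000 UMIs of its class (CPM), and differences are on the log2 scale.

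The members differed in how early along the lineage they were high, a description since the classes come from the same nuclei. Mbp, Mag and Cnp were already high in committed precursor-like nuclei, while Opalin, Ermn and Hapln2 were close to absent there. Mbp measured 135 ± 65 CPM (SD, n = 6 libraries) in oligodendrocyte precursor-like, 4370 ± 1078 in committed precursor-like and 6023 ± 241 in oligodendrocyte-like nuclei. The committed level of Mbp was 72.6% of its oligodendrocyte level, and that of Mag was 52.5%. Cnp measured 42.8 ± 4.05, 238 ± 78.7 and 216 ± 29.7 CPM in the same order, so that its committed level was 110.0% of its oligodendrocyte level, and the ranges of those neighbouring classes overlapped. Between these lay Aspa, at 25.9% of its oligodendrocyte level in committed precursor-like nuclei, Mobp at 16.5% and Mog at 12.2%. The Aspa percent pools both groups and ran from 12.2% to 78.9% between libraries. In saline libraries Aspa averaged 280 CPM in committed precursor-like and 562 CPM in oligodendrocyte-like nuclei. In naloxone libraries these means were 176 and 1198 CPM, so the place of Aspa in this order depended on the group. A UMI of Aspa was held by 36.4% ± 10.9, of Mobp by 25.3% ± 5.75 and of Mog by 35.9% ± 8.16 of committed precursor-like nuclei. In oligodendrocyte-like nuclei these shares were 59.0%, 82.3% and 89.9%. Opalin reached 4.38%, Ermn 3.20% and Hapln2 2.80% of their oligodendrocyte levels. Hapln2, for example, measured 11.1 ± 5.72, 16.9 ± 7.28 and 603 ± 138 CPM along the lineage. Each of the 8 members other than Cnp was higher in oligodendrocyte-like than in committed precursor-like nuclei in 6 of 6 libraries. The committed sums were small, from 203810 to 401066 UMIs per library. Marker gates, which choose single nuclei by detected markers, also took 162 of the 365 committed precursor-like nuclei. They took 547 of 2227 precursor-like and 10558 of 11662 oligodendrocyte-like nuclei. The 8 neuron markers summed to 1743 ± 903 CPM in committed precursor-like, 1506 ± 70.0 in precursor-like and 507 ± 105 in oligodendrocyte-like nuclei. Levels along the lineage are not given for the gates. Ermn had 0 UMIs in the committed sum of naloxone replicate 6, which allows up to 14.7 CPM by counting error alone.

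**Figure D1:**
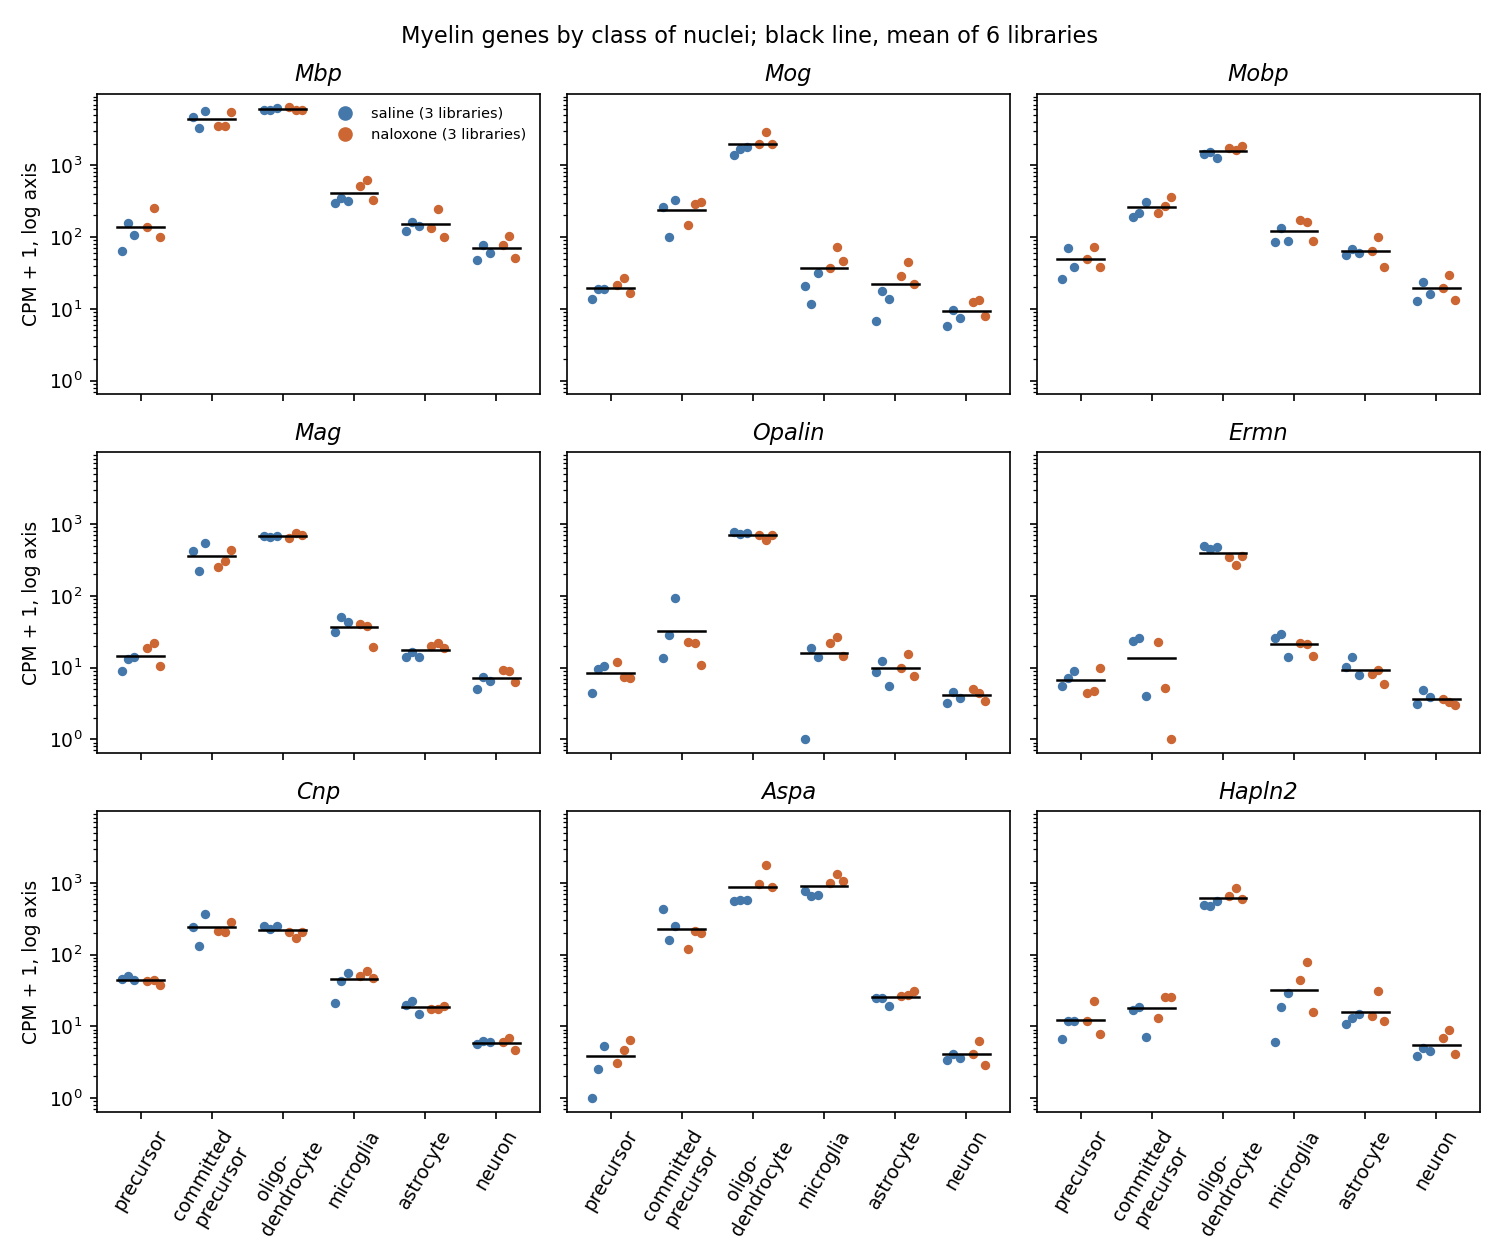
Level of each of the 9 genes (CPM + 1 on a log axis) in 6 classes of nuclei; points are libraries (blue saline, orange naloxone) and the black line is the mean of 6 libraries. In committed precursor-like nuclei Mbp, Mag and Cnp stand at 72.6%, 52.5% and 110.0% of their oligodendrocyte level, and the Aspa points of microglia-like and oligodendrocyte-like nuclei overlap.

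Cnp was also the member with the highest level in oligodendrocyte precursor-like nuclei relative to its mature level. It stood there at 19.8% of its oligodendrocyte level, against 0.322% (Aspa) to 3.07% (Mobp) for the other 8 members. The Cnp values were close together, at 44.8, 48.5 and 43.1 CPM in the saline and 41.4, 42.8 and 36.2 CPM in the naloxone libraries. The Mbp values in the same nuclei ranged from 62.0 to 251 CPM. After each nucleus was thinned to 1000 UMIs, 3.75% ± 1.19 of precursor-like nuclei held a Cnp UMI, against 0.512% ± 0.107 of neuron-like and 1.90% ± 0.261 of astrocyte-like nuclei (without thinning 13.2%, 4.2% and 4.64%). Microglia-like nuclei stood at 4.45% ± 2.42, mural-like at 3.85% ± 3.43, endothelial-like at 3.80% ± 2.72 and ependymal-like at 2.21% ± 1.97. Without thinning these shares were 6.10%, 4.64%, 6.81% and 8.04%. Aspa lay at the other end, with 23 UMIs in the precursor-like sums of all libraries and 0 of 870728 UMIs in saline replicate 1, which allows up to 3.45 CPM.

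In oligodendrocyte-like nuclei the 9 members together made up 1.30% ± 0.109 of all UMIs. Aspa rose after naloxone, and Mog, Hapln2 and Mobp had higher values in every naloxone library than in any saline library. Ermn, Cnp and Opalin had lower values in every naloxone library. Mbp and Mag overlapped between the groups. Aspa was the only member called, 1 of 9 beside 0.905% of the 11382 genes tested (0.703% called higher). The groups did not overlap for 7 of 9 members, beside 18.8% of all genes tested. Of these, 4 were higher in naloxone libraries (8.96% of all genes) and 3 lower (9.8%). An unadjusted p under 0.05 was reached by 6 members, beside 11.8% of all genes. Tests are edgeR's quasi-likelihood test on sums per library with Benjamini-Hochberg adjustment over all genes tested and a threshold of 0.05. The median log2 change of the 9 members was 0.05, beside -0.00 over all genes tested.

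Aspa measured 550.2, 565 and 571 CPM in the saline libraries and 975, 1741 and 879.5 CPM in the naloxone libraries. The saline libraries lay within a narrow band, and naloxone replicate 5 was the highest. The log2 change was 1.07 (SE 0.19, adjusted p = 0.0155 by edgeR). Without naloxone replicate 5 it was 0.74 with an adjusted p of 0.000254. The call was lost without any 1 of the saline libraries, with edgeR adjusted p between 0.0666 and 0.0915, and where nuclei were chosen by marker gates in place of clusters (1.2, edgeR adjusted p = 0.664).

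Mog measured 1398, 1670 and 1783 CPM in saline and 2002, 2880.5 and 1966 CPM in naloxone libraries. The log2 change was 0.49 (SE 0.14, adjusted p = 0.161 by edgeR), short of the threshold, and DESeq2 gave an adjusted p of 0.0245. Hapln2 measured 488, 477 and 549 CPM in saline and 656, 850.3 and 599 CPM in naloxone libraries, a log2 change of 0.46 (SE 0.12) with an adjusted p of 0.119 by edgeR and 0.0232 by DESeq2. Both genes were highest in naloxone replicate 5. Mobp measured 1446, 1521 and 1250 CPM in saline and 1734, 1627 and 1861 CPM in naloxone libraries (log2 change 0.31, SE 0.12, edgeR adjusted p = 0.326), and here naloxone replicate 5 was the lowest of its group.

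Ermn measured 486, 445 and 470 CPM in saline and 350, 265 and 358 CPM in naloxone libraries. Its log2 change was -0.52 (SE 0.13), with an adjusted p of 0.0937 by edgeR and 0.0125 by DESeq2. Naloxone replicate 5 was again the farthest from the saline libraries. Cnp measured 246, 223 and 247 CPM in saline and 207, 168 and 206 CPM in naloxone libraries (log2 change -0.30, SE 0.12, edgeR adjusted p = 0.338). Opalin measured 765, 726 and 738 CPM against 692, 606 and 708 CPM (log2 change -0.16, SE 0.11, edgeR adjusted p = 0.639). For Mbp the saline libraries gave 5864, 5806 and 6190 CPM and the naloxone libraries 6434, 5898 and 5944 CPM, a log2 change of 0.027 (SE 0.11) whose sign turned without saline replicate 2 (-0.0097) or naloxone replicate 4 (-0.016). Mag, at 674, 665 and 677 CPM against 635, 755 and 704 CPM, changed by 0.05 (SE 0.10).

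**Figure D2:**
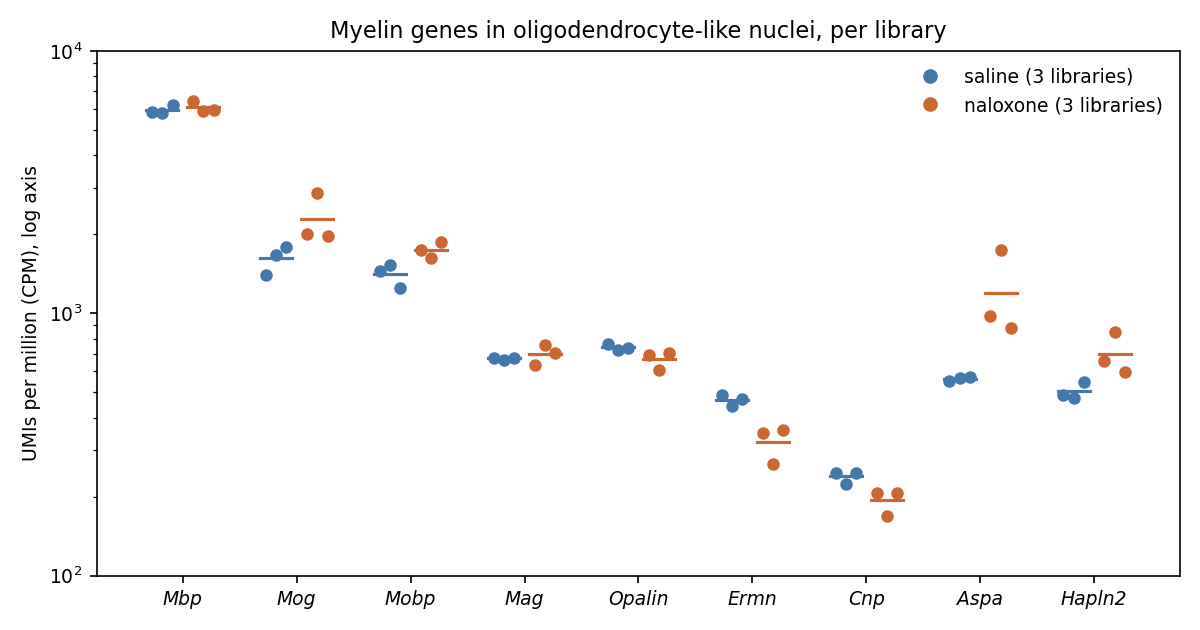
Level of each gene in oligodendrocyte-like nuclei (CPM, log axis) with 1 point per library and bars at the group means. The naloxone points of Aspa (879.5 to 1741) lie above all saline points (550.2 to 571), those of Ermn (265 to 358) lie below them (445 to 486), and Mbp and Mag overlap.

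Summed over the 9 members, the level was 12164 ± 284 CPM (SD, n = 3) in saline and 13899.8 ± 805 CPM in naloxone libraries. The groups did not overlap, and the exact two-sided permutation test gave p = 0.1, the smallest that 3 libraries against 3 allow. Oligodendrocyte-like nuclei made up 19.9% ± 4.50 of nuclei in saline and 19.9% ± 4.37 in naloxone libraries (exact permutation p = 1).

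The oligodendrocyte-like nuclei fell into 4 clusters, and the clusters did not hold the same share in the groups although no member was used to build them. Cluster 7 held 75.7%, 75.9% and 74.9% of the class in saline libraries and 39.5%, 3.11% and 37.1% in naloxone libraries. Cluster 8, whose leading genes included Gpd1 (a glycerol phosphate dehydrogenase) beside Aspa and Mog, held 2.21%, 3.20% and 3.65% in saline and 45.9%, 92.3% and 48.4% in naloxone libraries. Cluster 14 held 17.3% ± 0.474 against 7.17% ± 5.17, and cluster 28 held 4.19% ± 0.897 against 4.07% ± 0.632. Values for the whole class therefore rest mostly on cluster 7 in saline libraries, on clusters 7 and 8 in naloxone replicates 4 and 6, and on cluster 8 in naloxone replicate 5. These shares have no test, since the clusters were made from the same nuclei.

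By group means Mog and Mobp were higher and Ermn lower in naloxone libraries in 4 of 4 clusters, also without naloxone replicate 5, and Aspa was higher without it in clusters 8 and 28. Mobp in cluster 8 was lower in naloxone libraries without naloxone replicate 6 (1678 CPM in saline against 1605 CPM), and so it was in cluster 14 without naloxone replicate 4 (1557 against 1527 CPM). Aspa in cluster 28, whose share was alike in both groups, measured 677, 579 and 710 CPM in saline and 1037, 1495 and 1016 CPM in naloxone libraries. In cluster 8 it measured 267, 563 and 940 CPM against 1519, 1779 and 1050 CPM. The saline values there came from 30, 74 and 82 nuclei, and the naloxone values from 1170, 1600 and 707 nuclei. In clusters 7 and 14 the groups overlapped, with 482 and 413 CPM in naloxone replicate 4, below every saline library in the same cluster. The higher Aspa mean of these clusters rested on naloxone replicate 5, at 1452 CPM from 54 nuclei and 1049 CPM from 21 nuclei. Without it the means were 557 CPM in saline against 565 CPM in naloxone libraries in cluster 7, and 530.4 against 530.5 CPM in cluster 14. Ermn in cluster 28 measured 457, 322 and 294 CPM in saline and 181, 117 and 257 CPM in naloxone libraries. Its groups also did not overlap in clusters 8 and 14. Cluster 28 differed from the other clusters in its members as well. It held 42.5 ± 19.6 CPM of Hapln2 in saline, against 480 ± 25.4 in cluster 7, 683 ± 77.8 in cluster 8 and 740 ± 123 in cluster 14. Opalin was at 1232 ± 60.7 CPM in cluster 28 and 437 ± 41.9 CPM in cluster 14 of the saline libraries.

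**Figure D3:**
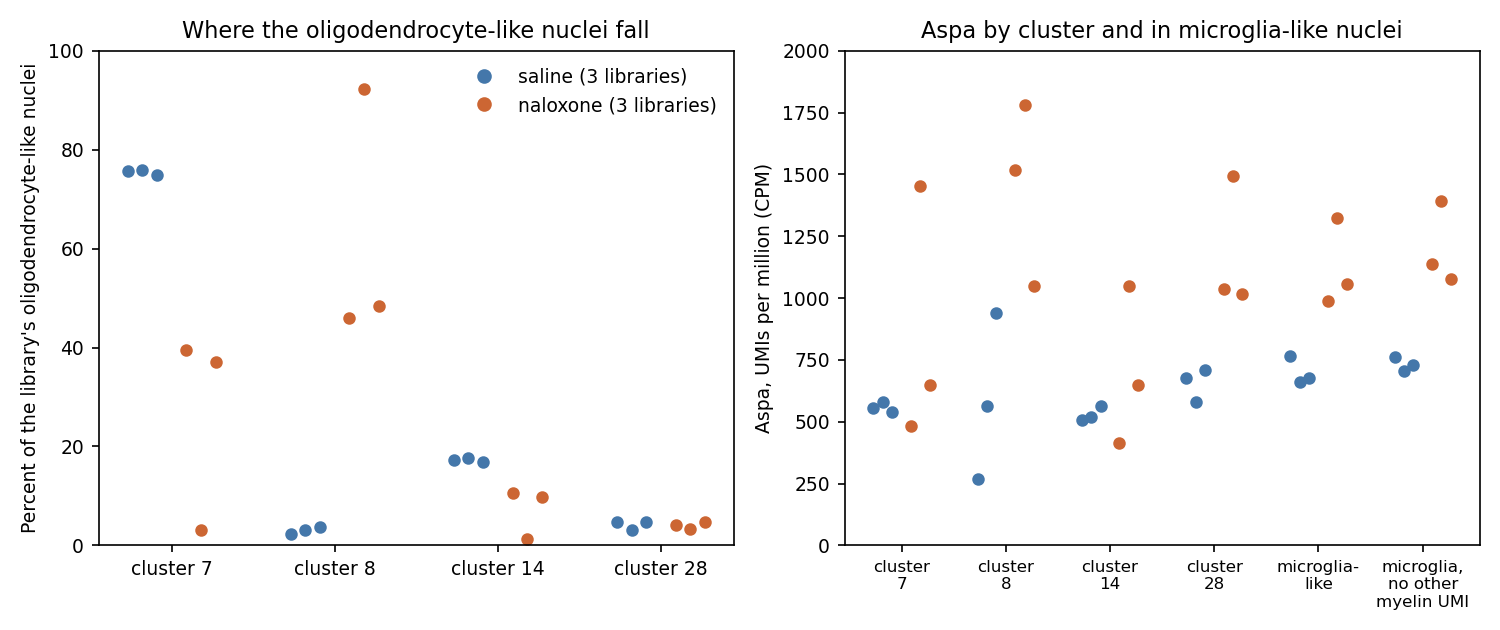
Left, percent of each library's oligodendrocyte-like nuclei in the 4 clusters; right, Aspa (CPM) in these clusters, in microglia-like nuclei, and in the microglia-like nuclei with no UMI of the other 8 genes. Points are libraries (blue saline, orange naloxone). Cluster 7 holds most nuclei of saline libraries and cluster 8 holds 45.9% to 92.3% in naloxone libraries; Aspa is higher in every naloxone library in clusters 8 and 28 and in microglia-like nuclei.

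Other genes of the myelin programme showed 1 call. Of 60 genes from lists of other myelin proteins, transcription factors, myelin lipid enzymes and oligodendrocyte metabolism that passed the count filter in oligodendrocyte-like nuclei, 22 had a log2 change above 0 and 38 below 0, and the groups did not overlap for 15 (25% of the 60, beside 18.8% of all genes tested). The 1 call was 1.67% of the 60, beside 0.905% of all genes tested. The median log2 change was -0.12, beside -0.00 over all genes tested. Qdpr, which regenerates the tetrahydrobiopterin cofactor, fell from 205, 190.2 and 228 CPM in saline to 129, 94.9 and 132 CPM in naloxone libraries (log2 change -0.80, SE 0.14, edgeR adjusted p = 0.0155). The call held in 4 of 6 fits that left out 1 library, with edgeR adjusted p between 0.00461 and 0.107. It was lost with marker gates, where 0 genes were called in oligodendrocyte-like nuclei. Among the other myelin proteins 5 of 16 were above 0 and 11 below, with 0 called in either direction. The 21 lipid synthesis genes split into 7 above and 14 below, with a median of -0.10 and 0 called. The 12 transcription factors split 6 and 6, with a median of 0.00 and 0 called. Adjusted p in these 3 lists was 0.125 or more.

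In the earlier stages no member was called. In committed precursor-like nuclei 6 of 9 members passed the count filter and 0 of 5132 genes were called by edgeR (0%; 259 had an unadjusted p under 0.05, 5.05%, with 0 members among them, and DESeq2 also called 0). On simulated data with a log2 change of 1 the test recovered 0% of changed genes in this class, so changes of that size were not detectable at this depth. In oligodendrocyte precursor-like nuclei 7 of 9 members passed, and 0 of these were called beside 0.286% of 9779 genes. Their log2 changes ran from -0.18 to 0.52, and 1 (Mbp) had an unadjusted p under 0.05, beside 8.08% of all genes. Cnp was the only member there whose groups did not overlap, lower in naloxone libraries beside 7.42% of all genes tested, at 43.1 to 48.5 CPM in saline and 36.2 to 42.8 CPM in naloxone libraries.

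Aspa was the 1 member with a high level outside the lineage. In microglia-like nuclei it measured 912 ± 260 CPM (SD, n = 6), 104% of its oligodendrocyte level and above it in 5 of 6 libraries. The ranges of both classes overlapped. The other 8 members stood in microglia-like nuclei at 1.83% (Mog) to 20.8% (Cnp) of their oligodendrocyte levels. After thinning to 1000 UMIs, 56.5% ± 7.66 of microglia-like nuclei held an Aspa UMI, against 46.6% ± 11.4 of oligodendrocyte-like, 1.92% ± 0.291 of astrocyte-like and 0.364% ± 0.122 of neuron-like nuclei (without thinning 63.1%, 59.0%, 6.15% and 2.31%). Of the 1539 microglia-like nuclei, 738 held no UMI of the other 8 members, and 462 of these (62.6%) held an Aspa UMI. The same measure gave 5.90% in astrocyte-like and 1.92% in neuron-like nuclei. This restriction to nuclei without other members was chosen after the values were seen.

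In microglia-like nuclei Aspa measured 766, 659.9 and 675 CPM in saline and 989, 1324 and 1059 CPM in naloxone libraries. Every naloxone library lay above every saline library, as for 2 members (Aspa and Mog) beside 6.02% of all genes tested. The log2 change was 0.70 (SE 0.14, adjusted p = 0.0430 by edgeR), so Aspa rose here too. It was the only member called of the 6 that passed the filter, beside 0.257% of 6217 genes (0.177% called higher). In the nuclei without other members it measured 763, 704 and 729 CPM in saline and 1137, 1392 and 1076 CPM in naloxone libraries, again with no overlap. The call held in 1 of 6 fits that left out a library, with log2 changes of 0.56 to 0.78 and edgeR adjusted p of 0.0378 to 0.404, and it was lost with at least 1000 genes per nucleus (adjusted p = 0.0585) and with marker gates (0.126). Of the 6 members tested in microglia-like nuclei, 5 had a log2 change above 0 and 1 below. Mog changed by 1.21 (SE 0.42, edgeR adjusted p = 0.407) and Mbp by 0.59 (SE 0.20, adjusted p = 0.347), and neither was called. The 8 members other than Aspa summed to 482, 642 and 589 CPM in saline and 892, 1074 and 568 CPM in naloxone libraries. Whether the change in Aspa differed between oligodendrocyte-like and microglia-like nuclei, or from that of other members, was not tested. The summed level of 14 oligodendrocyte markers in microglia-like nuclei ran from 800 to 930 CPM in saline and from 916 to 1147 CPM in naloxone libraries, and its part in the result was not tested.

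The Aspa gene overlaps Trpv3 and Spata22 in the RefSeq annotation, and whether reads were counted by strand is not given in the sources used here, so reads of these genes may not be told apart. Trpv3 measured 50.2 ± 17.9 CPM and Spata22 43.4 ± 28.4 CPM in microglia-like nuclei, and 35.3 ± 10.4 and 40.2 ± 31.0 CPM in oligodendrocyte-like nuclei. In neuron-like nuclei they measured 0.787 ± 0.221 and 1.59 ± 0.479 CPM. Mog overlaps Zfp57, which measured 38.7 ± 4.50 CPM in oligodendrocyte-like nuclei.

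Droplets also capture RNA that is free in the nuclear suspension, and transcripts of abundant cells can then appear in droplets of other cells. In 4 classes of different depth the 8 members other than Aspa came at about 1 UMI per nucleus. They gave 0.948 ± 0.2 UMIs per oligodendrocyte precursor-like, 0.807 ± 0.134 per astrocyte-like, 1.03 ± 0.201 per neuron-like and 0.980 ± 0.245 per microglia-like nucleus (SD, n = 6). The mean of the library medians was 3346, 2705, 8775 and 1308.5 UMIs per nucleus in these classes. As CPM the order of these 4 classes was the reverse of depth, from 117 ± 34.6 CPM in neuron-like to 708 ± 227 CPM in microglia-like nuclei. Smaller classes gave higher and more scattered values, with 2.42 ± 1.02 UMIs of the 8 members per endothelial-like, 1.32 ± 0.928 per mural-like and 4.13 ± 2.56 per ependymal-like nucleus (410, 187 and 275 nuclei in all). In oligodendrocyte-like nuclei all 9 members gave 24.3 ± 5.26 UMIs per nucleus. Among 16 neuron-like clusters the summed level of the 9 members ran from 95.2 to 235 CPM and the UMIs per nucleus from 0.839 to 1.84, with median depths from 3117 to 12598 UMIs. The Spearman correlation of depth over these clusters was -0.51 with CPM and 0.54 with UMIs per nucleus, as a description of clusters that share libraries.

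**Figure D4:**
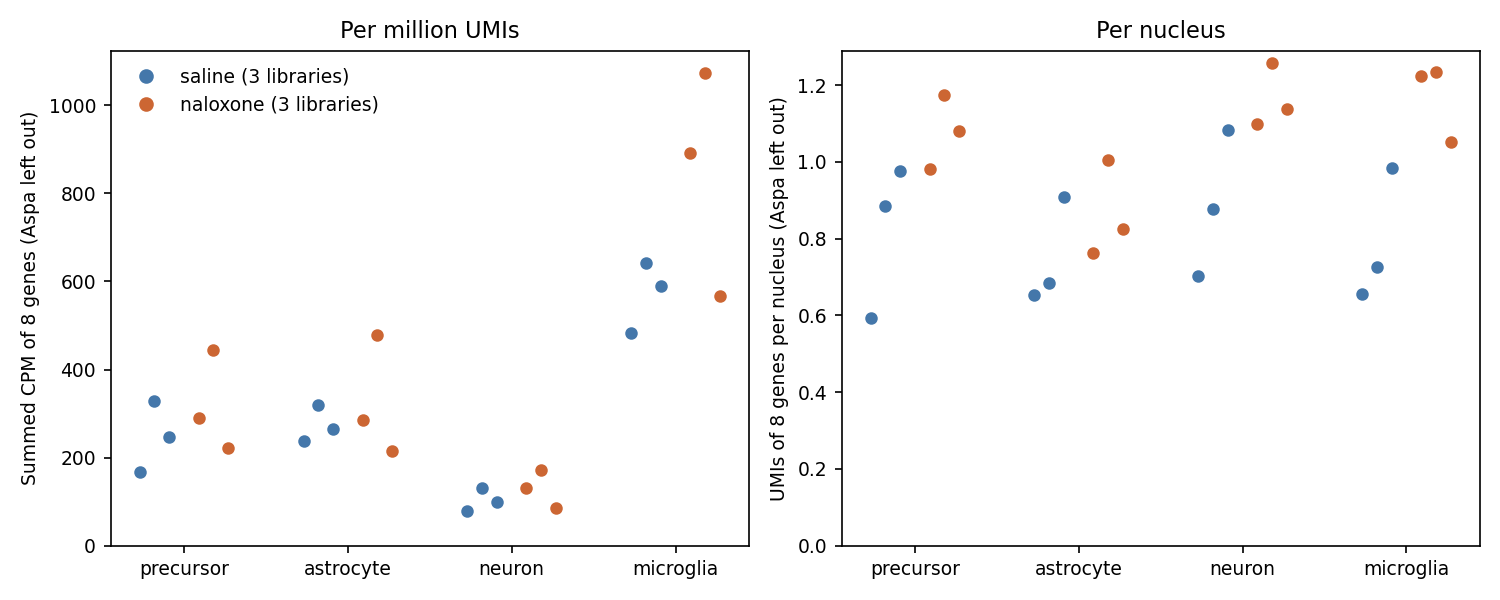
Summed level of 8 of the genes (Aspa left out) in 4 classes, as CPM on the left and as UMIs per nucleus on the right; points are libraries (blue saline, orange naloxone). The class means run from 117 to 708 CPM, while the class means per nucleus lie between 0.807 and 1.03 UMIs.

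The level outside the lineage varied between libraries of 1 group. In neuron-like nuclei the 9 members summed to 82.3, 134 and 103 CPM in saline and 135, 177 and 88.2 CPM in naloxone libraries. The groups overlapped, at 106 ± 25.9 and 133 ± 44.3 CPM (exact two-sided permutation p = 0.4, smallest possible 0.1). Naloxone replicate 5 was highest in neuron-like, astrocyte-like (505 CPM) and oligodendrocyte precursor-like nuclei (447 CPM), and it also had the highest mitochondrial share. The part of that share in the level was not tested. The neuron level was set against the percent of all UMIs that came from oligodendrocyte-like nuclei, which ran from 4.41% to 7.69%. Over 6 libraries Pearson's r was -0.12 (exact permutation p = 0.858) and Spearman's rho was -0.14 (exact permutation p = 0.803), for the 1 relation computed. Without saline replicate 3 and naloxone replicate 4, the farthest from the median share, r was -0.71 over 4 libraries.

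No member was called in neuron-like nuclei (0 of 9, beside 0.298% of 16133 genes, with 1 member at an unadjusted p under 0.05 beside 16.5% of all genes, and DESeq2 called 0 members). The largest log2 changes were those of Hapln2 (0.65, SE 0.29, edgeR adjusted p = 0.303) and Mog (0.57, SE 0.24, adjusted p = 0.273). None of the 9 members was called in astrocyte-like nuclei, beside 0.907% of 11024 genes, with 2 members at an unadjusted p under 0.05 (11.1% of all genes) and 0 called by DESeq2. Mog there measured 5.85, 16.5 and 12.7 CPM in saline and 27.2, 44.1 and 21.3 CPM in naloxone libraries (log2 change 1.34, SE 0.31, edgeR adjusted p = 0.0650), and it passed in 1 of 12 edgeR alternatives, the fit without the low-count filter (adjusted p = 6.16e-06). Mog, Mag and Aspa were higher in every naloxone library there, 3 of 9 members beside 6.43% of all genes tested. Mog had a value in 12 alternatives in astrocyte-like nuclei, against 13 in neuron-like nuclei, so the DESeq2 count may not cover it.

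The make-up of the member UMIs was compared between classes. Each member was taken as a percent of the 9 members' UMIs in a class and compared with the same percent in the oligodendrocyte-like nuclei of the same library. Mbp made up 57.2% ± 0.597 (SD, n = 6) of member UMIs in neuron-like nuclei and 46.4% ± 3.63 in oligodendrocyte-like nuclei, higher in 6 of 6 libraries. Cnp was 4.29% ± 0.848 against 1.68% ± 0.348, also higher in 6 of 6. Mog at 6.98% against 14.8%, Opalin at 2.62% against 5.47% and Aspa at 2.55% against 6.57% were lower in 6 of 6 libraries. For each, the exact two-sided sign-flip test gave p = 0.03125, which is the lowest value possible with 6 libraries (adjusted p = 0.045 by Benjamini-Hochberg over 36 comparisons). In neuron-like nuclei 7 of 9 members passed, 2 higher and 5 lower, and Mag at 5.29% against 5.28% did not (exact p = 0.969). The percents of a class sum to a fixed total, so the higher Mbp share there lowers those of the other members. The 5 lower calls were not tested with Mbp left out and may in part follow from its share.

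Mog, Opalin, Mobp and Cnp also passed in both astrocyte-like and oligodendrocyte precursor-like nuclei. Mog was 6.27% of member UMIs in astrocyte-like and 6.62% in oligodendrocyte precursor-like nuclei, and Opalin 2.69% and 2.70%, each lower than in oligodendrocyte-like nuclei in 6 of 6 libraries. Mobp was 19.4% and 16.7% against 12.1%, and Cnp 5.73% and 16.4% against 1.68%, each higher in 6 of 6 (exact sign-flip p = 0.03125, adjusted 0.045). Mbp in these classes, at 45.6% and 45.7%, did not pass (exact p = 0.719 and 0.781). In astrocyte-like nuclei 4 of 9 members passed and in precursor-like nuclei 6 of 9. In microglia-like nuclei Aspa took 56.4% ± 5.62 of member UMIs against 6.57% ± 2.78. The percents of 1 class sum to a fixed total, so the Aspa share lowers those of the other members, and the 7 of them that passed as lower are no separate result. In oligodendrocyte precursor-like nuclei the Cnp share, 16.4% against 1.68%, lowers the other shares in the same way. The Mbp result and the lower calls there were not tested with Cnp left out.

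These composition calls depended on how many comparisons reached the smallest p. Over all classes 25 of 36 comparisons passed, the 7 lower shares in microglia-like nuclei included, and an adjusted p under 0.05 needed at least 23 comparisons at the smallest p. Without microglia-like nuclei 17 of 27 passed, with an exact sign-flip p adjusted to 0.0496. With Aspa left out of the total, 20 of 32 comparisons had the smallest p, the lowest adjusted exact p was 0.05, and 0 passed. In that total Mbp was 57.2% in microglia-like nuclei against 49.7% in oligodendrocyte-like nuclei, higher in 6 of 6 libraries. Mog was lower and Cnp higher in 6 of 6 libraries in each of the 4 classes. With marker gates 0 of 36 passed, and all 25 differences kept their sign. Leaving out Aspa or microglia-like nuclei was chosen after the data were seen. The sums behind these percents were small outside neurons, from 145 to 491 member UMIs per library in precursor-like nuclei.

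**Figure D5:**
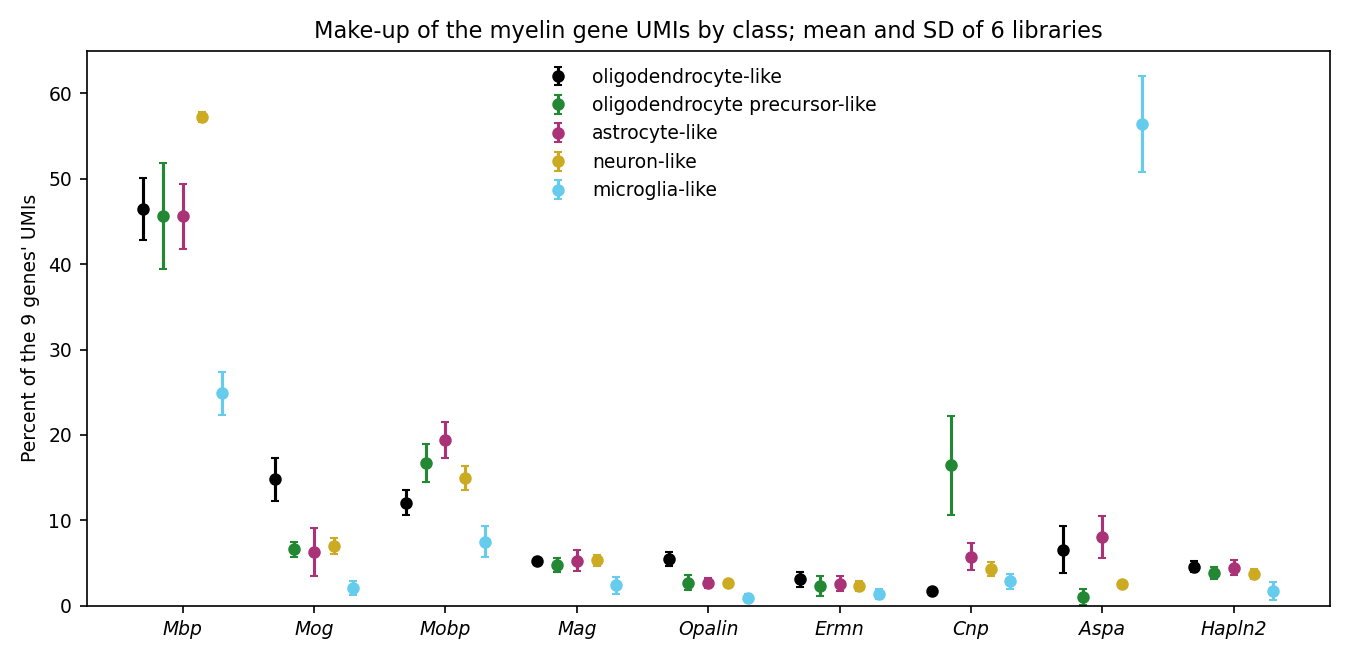
Each gene as a percent of the UMIs of the 9 genes in 5 classes, mean and SD over 6 libraries. Mog is at 14.8% in oligodendrocyte-like nuclei and between 2.09% and 6.98% in the other classes, Cnp is at 1.68% in oligodendrocyte-like and 16.4% in precursor-like nuclei, and Aspa takes 56.4% in microglia-like nuclei.

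Over 7 classes with at least 20 nuclei in every library, the genes outside members and markers whose mean log2(CPM + 1) was most like the mean of the 9 members were Abhd13 (r = 0.99), Lsm8 (0.99), Rad51d (0.98), Galnt2 (0.98) and Hmox2 (0.98). This likeness is of shape only, since Abhd13 ran from 3.03 in neuron-like to 3.84 in oligodendrocyte-like nuclei on that scale. Rad51d, a homologous recombination protein, ran from 5.55 to 9.05 and measured 533 CPM in oligodendrocyte-like nuclei.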

How the data were processed

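Single-nucleus 3' RNA libraries of 3 saline and 3 naloxone pools were analysed. UMI counts per gene and barcode were used as deposited by the authors, made with Cell Ranger 9.0.1 on mRatBN7.2 per the submitters' processing notes, which also list Seurat 5.2.1 and R 4.4.0. Strand and intron settings are not given in the sources used here. A nucleus needed 500 or more genes and no more than 5% mitochondrial UMIs. Called doublets, at 0.4% per 1000 nuclei, were removed (2649, 4.30%). Nuclei were clustered in scanpy 1.11.5 (Python 3.11.15; 3000 variable genes, 40 components, 15 neighbours, resolution 1) without the 9 members, and clusters were named by at least 3 other markers and their top 10 genes. Counts were summed per class and library and tested in edgeR 4.0.16 (R 4.3.3; quasi-likelihood, TMM, filterByExpr, Benjamini-Hochberg, threshold 0.05). Single values were tested by exact permutation over libraries. The percent of nuclei holding a UMI was taken before and after thinning to 1000 UMIs, leaving out shallower nuclei. On average this left out 35.9% of mural-like, 32.0% of microglia-like, 27.4% of endothelial-like and 16.1% of oligodendrocyte-like nuclei. Intervals and limits of a count of 0 (3 counts) cover counting error only.

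On simulated data with 200 genes changed by a log2 change of 1, the test recovered 77% in oligodendrocyte-like (11382 genes), 70.5% in precursor-like (9779), 0% in committed precursor-like (5132), 78.5% in neuron-like (16133), 69% in astrocyte-like (11024) and 44.5% in microglia-like sums (6217). Unchanged genes called in these simulations numbered 13, 15, 0, 20, 9 and 3 in the same order. Genes named were the 9 members, any gene of the pathway lists with an adjusted p under 0.05 in the lineage, and the 5 genes most like the members' mean over classes. The members and lists were chosen with earlier results of these data known. Alternatives were RLE factors, no low-count filter, DESeq2 1.42.0, at least 1000 genes per nucleus, doublets kept, resolution 0.5, marker gates and each library left out. For the composition, Aspa or microglia-like nuclei were also left out, chosen after seeing the data.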

Additional observations from a re-analysis of the deposited data

How the results depend on the processing

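No paired analysis was possible because the saline libraries are numbered 1 to 3 and the naloxone libraries 4 to 6, so the groups share no number. The count of called genes moved with the settings, and the cause was not tested. Without the low-count filter, edgeR called 407 genes in oligodendrocyte-like, 56 in committed precursor-like, 84 in oligodendrocyte precursor-like, 84 in neuron-like, 314 in astrocyte-like and 63 in microglia-like nuclei. DESeq2 called 176 in oligodendrocyte-like and 473 in neuron-like nuclei. Marker gates gave 0 in oligodendrocyte-like (804 with an unadjusted p under 0.05), 6 in precursor-like, 16 in neuron-like and 2 in microglia-like nuclei by edgeR, and 0 of the 36 composition comparisons (25 of 25 kept their sign). With Aspa left out of the composition 0 of 32 comparisons passed, an alternative chosen after seeing the data. With doublets kept edgeR called 14 in precursor-like and 0 in neuron-like nuclei (2143 at an unadjusted p under 0.05), and with at least 1000 genes 10 in microglia-like nuclei. With 1 library left out the edgeR counts ran from 36 to 117 in oligodendrocyte-like, 0 to 0 in committed precursor-like (139 to 361 at an unadjusted p under 0.05), 2 to 37 in precursor-like, 0 (without any 1 saline library or naloxone replicate 4, 1697 to 2388 at an unadjusted p under 0.05) to 1074 (without naloxone replicate 5) in neuron-like, 27 to 114 in astrocyte-like and 2 to 25 in microglia-like nuclei. Composition comparisons passed 0 times with 1 library left out, since 5 libraries cannot give an exact p below 0.0625. The difference in the share of oligodendrocyte-like nuclei ran from -2.47 to 2.58 percentage points and was above 0 when saline replicate 3 (2.58) or one of naloxone replicates 5 (1.69) and 6 (0.765) was left out. Pearson's r of the neuron level with the oligodendrocyte share of UMIs ran from -0.35 to 0.39 and was above 0 without saline replicate 3 (0.04) or naloxone replicate 5 (0.39). The Mbp log2 change in oligodendrocyte-like nuclei ran from -0.016 to 0.073 and was below 0 without saline replicate 2 (-0.0097) or naloxone replicate 4 (-0.016). The summed level differed by 5.25 to 49.5 CPM in neuron-like and by 1291 to 2074 CPM in oligodendrocyte-like nuclei. Mog, Ermn and Hapln2 passed the threshold in oligodendrocyte-like nuclei with DESeq2 and without the low-count filter, and not in the edgeR fit reported. Mog in astrocyte-like and Mbp in oligodendrocyte precursor-like nuclei passed without that filter and in no other alternative run, and Mbp in microglia-like nuclei passed without naloxone replicate 6.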
